A study of Mus musculus with 11 samples.

Results

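Transcript levels of 9 polypeptide N-acetylgalactosaminyltransferases (Galnt1, Galnt2, Galnt4, Galnt6, Galnt9, Galnt10, Galnt11, Galnt12 and Galnt14) were compared across 3 CD4+ T cell populations of the mouse spleen. The 9 genes were selected by name, after results of these arrays were known, and each was read from the probe set whose identifier carries a RefSeq transcript of the gene. Where a gene had several, the probe set was to be chosen by the highest mean over the 11 arrays, but each gene had 1. They are 9 of 19 family genes with a named probe set on the array, and 9 of the 909 named genes among its 1246 probe sets. The populations were CD4+CD25+(CD45RBlow) cells, which the labels call Treg (regulatory T cells, n = 3, replicates 1, 2 and 4), CD4+CD25-CD45RBlow cells, labelled activated/memory (n = 4), and CD4+CD25-CD45RBhigh cells, labelled naïve (n = 4). All came from female C57BL/6 mice with no treatment named. An age of 4 to 6 weeks is given for the CD25- populations and none for Treg. Every sample went onto an array of its own, of a custom chip for glycan-related genes. No label says whether the replicates came from separate or pooled mice, so p-values reflect no more than the spread between the samples at hand, which may be technical.

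Mucin-type O-glycans start in the Golgi when a polypeptide GalNAc-transferase moves N-acetylgalactosamine (GalNAc) from UDP-GalNAc onto a serine or threonine of a protein. The family has many members with overlapping substrates. Some act on bare peptides and others prefer peptides that already carry a GalNAc. On T cells the finished chains cover proteins such as CD43, CD45 and PSGL-1 and take part in selectin binding and homing.

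The array medians lay between 4.85 and 4.94 on the log2 scale. Il2ra, the gene of CD25, averaged 9.84 in Treg, 6.17 in CD45RBlow and 4.07 in CD45RBhigh cells, in the order of the sort. Foxp3 and the T cell markers Cd3e, Cd4, Cd5, Ptprc and Cd28 were not analysed here. Some markers of other cells and states moved with the populations. Ccr7, a homing receptor gene of naive T cells, averaged 10.37 in Treg, 10.69 in CD45RBlow and 11.38 in CD45RBhigh cells. Klrd1, a receptor gene of natural killer and CD8+ T cells, averaged 3.93 in Treg, 8.28 in CD45RBlow and 9.22 in CD45RBhigh cells. With Klra3 and Klra9, its linear levels summed to at most 50 in Treg arrays, and to between 359 and 475 in CD45RBlow and 634.2 and 831 in CD45RBhigh arrays, and 1 of these 3 genes, of 7 listed, stayed under the first quartile of all values on every array. The B cell genes Cd22 and Cd72, measured of 6 listed, summed to between 362.5 and 423.1 in Treg, 232.9 and 303.9 in CD45RBlow, and 245.5 and 307 in CD45RBhigh arrays. This sum follows the brighter Cd72, and the genes differed in order. Cd72 averaged 8.24 in Treg, 7.39 in CD45RBlow and 7.70 in CD45RBhigh cells. Cd22 was highest in CD45RBlow cells, at 6.35 in Treg, 6.64 in CD45RBlow and 6.06 in CD45RBhigh cells. The 7 activated and memory markers measured summed to between 2109.4 and 2265 in Treg, 7303.7 and 9995.6 in CD45RBlow, and 1114 and 1724.4 in CD45RBhigh arrays. The sums of the 5 myeloid markers measured of 8 listed overlapped, between 101.1 and 111.8 in Treg, 98.2 and 111.6 in CD45RBlow, and 105 and 115.3 in CD45RBhigh arrays. Selp, of 5 platelet and erythroid markers listed, lay between 30.9 and 39 in Treg, 22.8 and 27.6 in CD45RBlow, and 24.5 and 27.8 in CD45RBhigh arrays. The part of these markers in the results on GalNAc-transferases was not tested, and fewer cells of a type and less RNA per cell cannot be told apart in such bulk samples.

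Several starting enzymes had lower transcript levels in Treg than in both CD25- populations. Galnt10 was the farthest apart, 2.22-fold lower in Treg than in CD45RBhigh cells and 1.73-fold lower than in CD45RBlow cells, and Galnt6, Galnt2, Galnt9 and Galnt12 were also lower in Treg in both comparisons. Galnt14 was higher in Treg than in CD45RBlow cells. Galnt4 differed between CD45RBhigh cells and both other populations. The tests are from limma, a linear model fitted to the log2 values of all 11 arrays and 1246 probe sets, with p-values adjusted by the Benjamini-Hochberg method over all probe sets and a threshold of 0.05.

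Over the whole family of 19 genes, 0 were higher and 7 lower in Treg than in CD45RBhigh cells, where 10.3% of all probe sets were higher and 8.59% lower. Against CD45RBlow cells 1 was higher and 5 lower in Treg, where 6.74% of all probe sets were higher and 5.78% lower. Between CD45RBlow and CD45RBhigh cells 0 were higher and 2 lower in CD45RBlow, where 7.62% of all probe sets were higher and 4.98% lower. The median log2 difference of the 19 was -0.15, 0.01 and -0.15 in these 3 comparisons, and that of all probe sets was -0.04, 0.04 and -0.08. The comparisons share arrays and are not independent of each other. At most 3 of the 10 family genes outside the 9 had an unadjusted p under 0.05 in any comparison, with no share of all probe sets beside it. Of the 9 genes described here 8 passed in at least 1 comparison, and of those other 10 family genes 0 did. The choice of the 9 thus follows the calls, so their own counts (0 higher and 7 lower, 1 higher and 5 lower, 0 higher and 2 lower) are a description only, and so is each p below. Of the 9, 1 lay above and 7 under all CD45RBhigh arrays in Treg, where the arrays of 25% of all probe sets did not overlap (12.5% higher, 12.4% lower). Against CD45RBlow 1 lay above and 5 under in Treg, beside 21.3% of all probe sets (12.5% higher, 8.83% lower). Between CD45RBlow and CD45RBhigh 0 lay above and 3 under in CD45RBlow, beside 17.8% (8.51% higher, 9.31% lower).

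**Figure D1:**
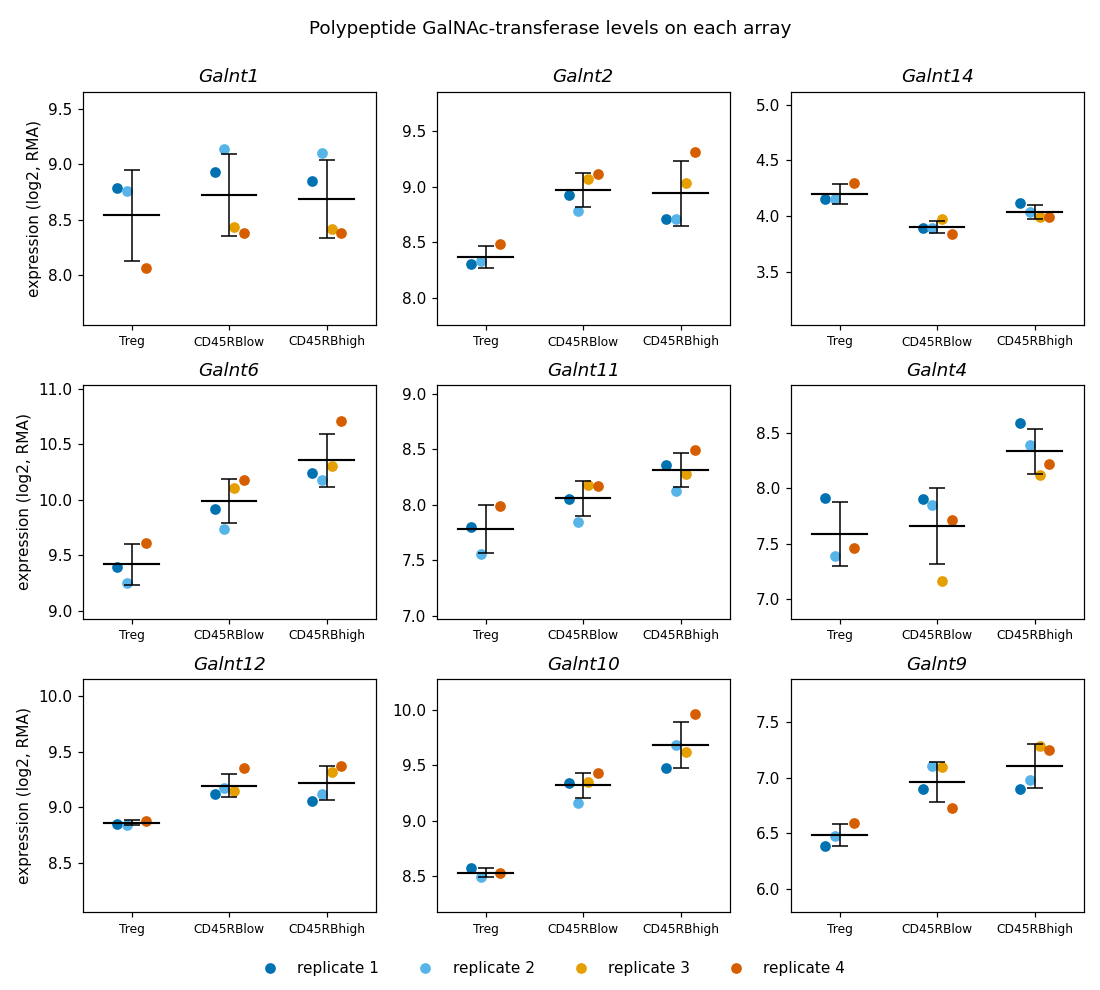
Log2 level of each GalNAc-transferase gene on every array. Each panel is a gene, its points are arrays in Treg, CD45RBlow and CD45RBhigh order, coloured by replicate number, and bars give the mean ± SD (n = 3, 4 and 4). All panels span the same number of log2 units, and levels of different panels come from different probe sets and are not comparable. The Galnt10 and Galnt6 means step down towards Treg, while the Galnt1 points split by replicate number.

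Among the transferases that start chains on bare peptides, Galnt1 and Galnt2 are broadly expressed, and mice without Galnt1 have defects in lymphocyte homing. Galnt1 gave no call. Its log2 levels were 8.79, 8.76 and 8.07 in Treg, 8.93, 9.14, 8.44 and 8.38 in CD45RBlow, and 8.85, 9.10, 8.42 and 8.38 in CD45RBhigh arrays. The populations overlapped throughout, and in each of them replicates 1 and 2 were the high arrays. The mean of replicates 1 and 2 exceeded that of the other replicates by 0.71 in Treg, 0.62 in CD45RBlow and 0.58 in CD45RBhigh cells. Treg minus CD45RBhigh was -0.15 (SE 0.25, 95% interval -0.69 to 0.40, adjusted p = 0.765 with limma), and Treg minus CD45RBlow was -0.18 (SE 0.25, adjusted p = 0.728). With the replicate number as a block, these differences were -0.24 (SE 0.07, adjusted p = 0.0368) and -0.27 (SE 0.07, adjusted p = 0.0247). With replicates 1 and 2 against 3 and 4 as a covariate in place of the number, they also passed (-0.25, adjusted p = 0.0314, and -0.28, adjusted p = 0.0219). Within a number, Treg lay below CD45RBhigh by 0.05, 0.34 and 0.31 in replicates 1, 2 and 4.

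Galnt2 was lower in Treg than in both CD25- populations. The log2 levels were 8.30, 8.33 and 8.48 in Treg, 8.92, 8.78, 9.07 and 9.11 in CD45RBlow, and 8.71, 8.71, 9.03 and 9.31 in CD45RBhigh arrays. Every Treg array lay under every other array, and the CD25- populations overlapped. The difference was -0.57 (SE 0.14, adjusted p = 0.0165 with limma) from CD45RBhigh and -0.60 (SE 0.14, adjusted p = 0.0174) from CD45RBlow cells. CD45RBlow minus CD45RBhigh was 0.03 with a 95% interval from -0.26 to 0.32. The calls ended without Treg replicate 1 (adjusted p = 0.0673 and 0.0727 against CD45RBhigh and CD45RBlow) and without Treg replicate 2 (adjusted p = 0.0654 and 0.0670), with differences of -0.53 or below in all 4 fits.

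Galnt14, whose human form is known to glycosylate death receptors, had the opposite direction to the rest in both comparisons with Treg. On the log2 scale the arrays read 4.15, 4.15 and 4.30 in Treg, 3.89, 3.89, 3.97 and 3.84 in CD45RBlow, and 4.12, 4.04, 3.99 and 3.99 in CD45RBhigh arrays. All Treg arrays lay above all others, and CD45RBlow arrays lay under all others. Treg exceeded CD45RBlow by 0.30 (SE 0.06, adjusted p = 0.00855 with limma), a 1.23-fold difference. Treg minus CD45RBhigh was 0.16 (95% interval 0.02 to 0.30, adjusted p = 0.112), and CD45RBlow minus CD45RBhigh was -0.14 (adjusted p = 0.160). Galnt14 is the dimmest of the 9 probe sets, though above the first quartile of all values (3.64) on every array. CD45RBhigh replicates 3 and 4 carry the same Galnt14 value to every deposited decimal, and 439 probe sets hold such a pair within a population.

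Galnt6, a close relative of Galnt3, was lowest in Treg and highest in CD45RBhigh cells. Its log2 levels were 9.39, 9.25 and 9.61 in Treg, 9.92, 9.74, 10.11 and 10.18 in CD45RBlow, and 10.24, 10.18, 10.30 and 10.71 in CD45RBhigh arrays. Treg arrays lay under all others, and the CD25- populations met at 10.18. Treg was 1.91-fold lower than CD45RBhigh (log2 difference -0.94, SE 0.15, adjusted p = 0.000718 with limma) and 1.48-fold lower than CD45RBlow cells (-0.57, SE 0.15, adjusted p = 0.0246). The second call ended without Treg replicate 1 (adjusted p = 0.0865), Treg replicate 2 (0.110), CD45RBlow replicate 3 (0.0638) or CD45RBlow replicate 4 (0.0651). CD45RBlow minus CD45RBhigh was -0.37 (SE 0.14, adjusted p = 0.111), and with the replicate block the adjusted p was 0.00340. CD45RBlow was under CD45RBhigh in each of the 4 replicate numbers, by 0.32, 0.44, 0.19 and 0.52.

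Galnt11, which acts on the receptor Notch1 in human and Xenopus cells, followed the same order of means with smaller steps. The log2 levels were 7.80, 7.56 and 7.99 in Treg, 8.05, 7.84, 8.18 and 8.17 in CD45RBlow, and 8.36, 8.12, 8.28 and 8.49 in CD45RBhigh arrays. Treg and CD45RBhigh did not overlap, while CD45RBlow overlapped with both. Treg was lower than CD45RBhigh by 0.53 in log2 (95% interval of the difference -0.80 to -0.26, adjusted p = 0.0104 with limma). Leaving out Treg replicate 2 ended this call (adjusted p = 0.0528). Treg minus CD45RBlow was -0.28 (adjusted p = 0.203) and CD45RBlow minus CD45RBhigh was -0.25 (adjusted p = 0.167), and both passed with the replicate block (adjusted p = 0.0227 and 0.0150). Treg minus CD45RBhigh within replicates 1, 2 and 4 was nearly constant, at -0.56, -0.56 and -0.50.

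Among the transferases that prefer peptides already bearing GalNAc, Galnt10 had the widest separation of the 9 genes. On the log2 scale the arrays read 8.57, 8.49 and 8.53 in Treg, 9.34, 9.16, 9.35 and 9.43 in CD45RBlow, and 9.47, 9.68, 9.62 and 9.96 in CD45RBhigh arrays. The 3 populations did not overlap. Treg minus CD45RBhigh was -1.15 (SE 0.10, 95% interval -1.38 to -0.92, adjusted p = 1.00e-05 with limma), and Treg minus CD45RBlow was -0.79 (SE 0.10, 95% interval -1.02 to -0.56, adjusted p = 0.000332). Both calls held under all alternatives tried. CD45RBlow minus CD45RBhigh was -0.36 (SE 0.10, adjusted p = 0.0320). That call ended without CD45RBlow replicate 1 (adjusted p = 0.0753), CD45RBlow replicate 2 (0.0966), CD45RBlow replicate 3 (0.0567) or CD45RBhigh replicate 2 (0.0673), and when only the arrays compared were fitted (0.0654). Within replicate numbers, Treg lay below CD45RBhigh by 0.90, 1.19 and 1.43.

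Galnt4, whose human form acts on PSGL-1, the protein that carries the P-selectin ligand of leukocytes, set CD45RBhigh cells apart. Its log2 levels were 7.91, 7.39 and 7.46 in Treg, 7.90, 7.85, 7.16 and 7.71 in CD45RBlow, and 8.59, 8.39, 8.12 and 8.22 in CD45RBhigh arrays. All CD45RBhigh arrays lay above all others, and Treg and CD45RBlow overlapped. Treg was 1.68-fold lower than CD45RBhigh (log2 difference -0.74, SE 0.19, adjusted p = 0.0173 with limma), and CD45RBlow was 1.59-fold lower (-0.67, SE 0.18, adjusted p = 0.0295). Treg minus CD45RBlow was -0.07 with a 95% interval from -0.49 to 0.35. The first call ended without Treg replicate 2 (adjusted p = 0.0857) or Treg replicate 4 (0.0638), and the second without CD45RBhigh replicate 1 (0.0815) or CD45RBhigh replicate 2 (0.0673).

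Galnt12 had the smallest of the falls that passed. The log2 levels were 8.85, 8.84 and 8.88 in Treg, 9.12, 9.17, 9.15 and 9.35 in CD45RBlow, and 9.06, 9.12, 9.32 and 9.37 in CD45RBhigh arrays. Treg arrays lay under all others with an SD of 0.02, and the CD25- populations overlapped. Treg was 1.28-fold lower than CD45RBhigh (log2 difference -0.36, SE 0.09, adjusted p = 0.0147 with limma) and 1.26-fold lower than CD45RBlow cells (-0.34, SE 0.09, adjusted p = 0.0259). The first call ended without Treg replicate 1 (adjusted p = 0.0511) or Treg replicate 2 (0.0547). The second ended without any 1 of the Treg replicates or CD45RBlow replicates 2 or 4 (adjusted p between 0.0510 and 0.0866). The identifier of this probe set carries a suffix for probes that may match several transcripts. Galnt7, also of the glycopeptide-preferring kind but not among the 9, read 7.54, 7.14 and 6.50 in Treg, 7.60, 7.65, 7.05 and 7.26 in CD45RBlow, and 7.94, 7.98, 7.26 and 7.69 in CD45RBhigh arrays. Its Treg minus CD45RBhigh difference of -0.66 (SE 0.25, adjusted p = 0.105) passed with the replicate block (-0.79, adjusted p = 0.000745), and so did that from CD45RBlow (-0.33 against -0.46 with the block, adjusted p = 0.495 and 0.0248).

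Galnt9, described mainly in brain, was measured above the first quartile on every array of these T cells. On the log2 scale the arrays read 6.39, 6.48 and 6.59 in Treg, 6.90, 7.11, 7.10 and 6.73 in CD45RBlow, and 6.90, 6.98, 7.29 and 7.25 in CD45RBhigh arrays. Treg arrays lay under all others, and the CD25- populations overlapped. Treg was 1.54-fold lower than CD45RBhigh (log2 difference -0.62, SE 0.12, adjusted p = 0.00351 with limma) and 1.39-fold lower than CD45RBlow cells (-0.47, SE 0.12, adjusted p = 0.0237). The second call ended without Treg replicate 1 (adjusted p = 0.1004), Treg replicate 2 (0.0762), CD45RBlow replicate 2 (0.0644) or CD45RBlow replicate 3 (0.0623). CD45RBlow minus CD45RBhigh was -0.15 (95% interval -0.39 to 0.10, adjusted p = 0.402).

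**Figure D2:**
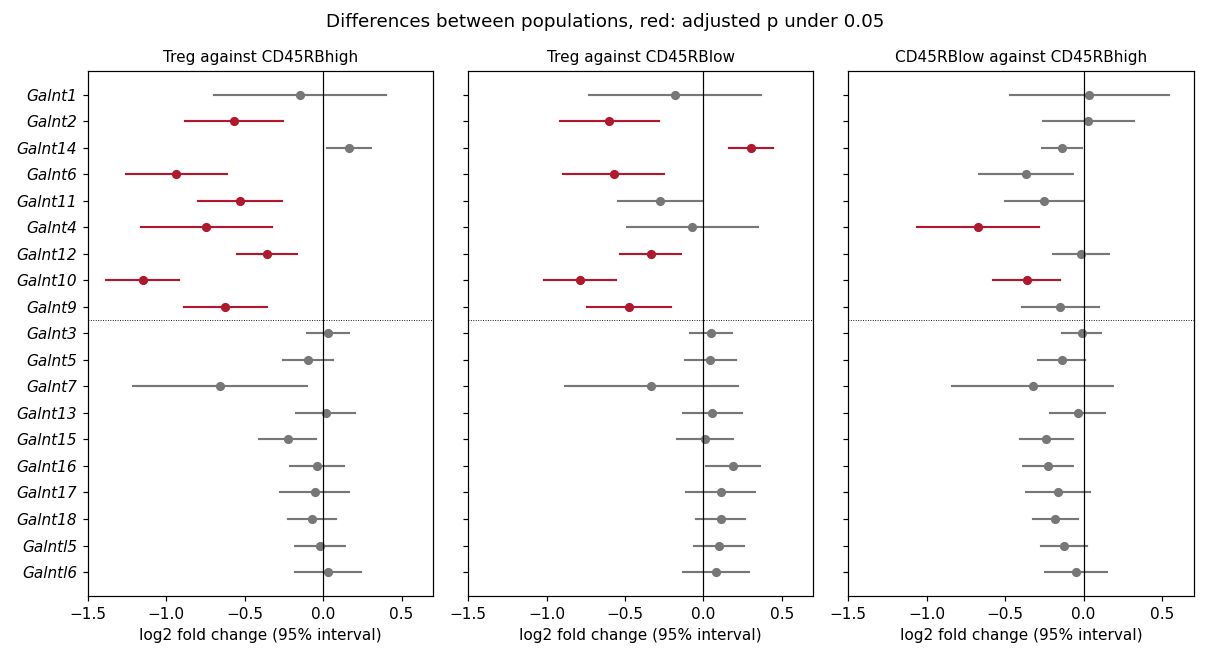
Log2 differences of the 19 family genes in the 3 comparisons, with 95% intervals from limma, for the 9 genes described here above the dotted line and the other 10 below it. Red marks an adjusted p under 0.05. In Treg against CD45RBhigh 7 of the 9 lie left of 0 in red, while 0 of the other 10 are red.

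The 10 other family genes on the array gave 0 calls with limma. At an unadjusted p under 0.05, 0 were higher and 2 lower in Treg than in CD45RBhigh cells. Against CD45RBlow cells 1 was higher and 0 lower in Treg, and 0 were higher and 3 lower in CD45RBlow than in CD45RBhigh cells. The share of all probe sets at that unadjusted threshold is not given here, so these counts are a description only. With the replicate block 1 was lower in each comparison, Galnt7 in both with Treg and Galnt16 between CD45RBlow and CD45RBhigh (difference -0.23, adjusted p = 0.0623 without and 0.0402 with the block). No share of all probe sets called with the block stands beside these counts. Galnt3, Galnt13, Galntl5 and Galntl6 stayed under the first quartile of all values on all 11 arrays, and none of the 9 did on any array. Differences of such dim probe sets are hard to measure.

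The CD45RBlow mean lay between the other means for 6 of the 9 genes and for 7 of the 19, against 38.4% of all probe sets. As the choice of the 9 follows the calls, their count is a description only and cannot be read against that share. The place of the CD45RBlow mean is given as a share of the way from the CD45RBhigh mean to the Treg mean. It was 90.3% for Galnt4, 47.9% for Galnt11, 39.1% for Galnt6, 31.6% for Galnt10, 23.7% for Galnt9 and 5.5% for Galnt12. The mean lay outside the range for Galnt2 (-5.4%), Galnt1 (-23.5%) and Galnt14 (-84.1%). Galnt4 in CD45RBlow cells was thus near Treg, Galnt2 and Galnt12 were near CD45RBhigh, and Galnt6, Galnt10 and Galnt11 stood between. These shares were not tested against each other.

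Differences between arrays of the same replicate number had few changes of sign. Treg lay below CD45RBhigh in all 3 numbers for 8 of the 9 genes and above it in all 3 for the other, Galnt14. Treg lay below CD45RBlow in all 3 numbers for 7 and above it for 1. CD45RBlow lay below CD45RBhigh in all 4 numbers for 5 and above it for 1. Over all 19 genes the counts below and above were 10 and 1, 8 and 5, and 10 and 1. Of all probe sets 28.3% lay below and 20.1% above in every number in Treg against CD45RBhigh, 19.2% and 32.5% in Treg against CD45RBlow, and 28.1% and 12.4% in CD45RBlow against CD45RBhigh. As the 9 follow the calls, their counts are a description. The gap between the mean of replicates 1 and 2 and that of the other replicates ran in opposite directions between genes. It was positive in all populations for Galnt1 and for Galnt4 (0.19 in Treg, 0.44 in CD45RBlow and 0.32 in CD45RBhigh). It was negative in all of them for Galnt2 (-0.17, -0.24 and -0.46) and Galnt6 (-0.29, -0.32 and -0.30).

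**Figure D3:**
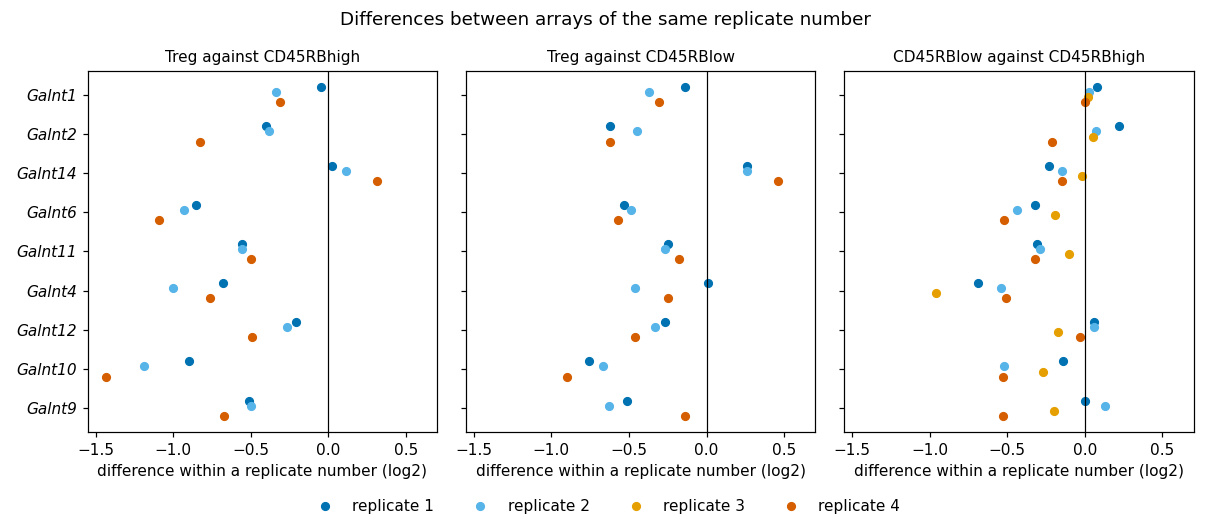
Log2 difference between arrays that carry the same replicate number, for the 9 genes and the 3 comparisons, with points coloured by replicate number. Replicate 3 has no Treg array. Galnt10 lies between -0.90 and -1.43 in Treg against CD45RBhigh, and Galnt14 lies right of 0 in both comparisons with Treg.

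Profiles across the 11 arrays were compared by the root mean square difference after each was centred on its own mean, over 908 other named genes. This is a description, with no test. Among the 9, Galnt6 and Galnt10 were the closest pair (0.148), followed by Galnt2 and Galnt12 (0.155), and Galnt1 and Galnt6 were the farthest apart (0.575). Nearest to Galnt10, whose own SD over the arrays was 0.475, were Xylt2 (0.145), Ugcg (0.147) and Galnt6. Xylt2 starts glycosaminoglycan chains with xylose, and Ugcg makes glucosylceramide, the first step of most glycosphingolipids. Nearest to Galnt6 were Hdac5 (0.124), a histone deacetylase, Galnt10 and Xylt2 (0.159).

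Galnt4 was nearest to Ogt (0.114), which adds N-acetylglucosamine to nuclear and cytosolic proteins, then to Piga (0.159), of GPI anchor synthesis, and to the interleukin-6 receptor gene Il6ra (0.169). Galnt2 was nearest to Ccl25 (0.0931), Mfng (0.106) and Abhd16a (0.109). Galnt9 was nearest to Sgsh (0.148), Uggt1 (0.162) and Hexa (0.172), Galnt11 to Igf2bp2 (0.0786), Hexa (0.0948) and Pecam1 (0.117), and Galnt12 to Neu1 (0.0845), Cmas (0.0861) and Arsa (0.0869). Sgsh, Hexa, Neu1 and Arsa encode lysosomal enzymes. Galnt14 was nearest to Bmp8a (0.0592), Il17d (0.0659) and B3gnt4 (0.0660). Genes that vary little over the arrays have small distances by this measure, so distances of different genes are not comparable. The probe sets of Xylt2, Ugcg, Ogt, Il6ra and Sgsh have a suffix for probes that may match several transcripts.

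Promoter windows from the RefSeq table of GRCm38.p6 were examined for 5 of the 9 genes, with 8 windows in all. The 5 were Galnt6, Galnt9, Galnt10, Galnt11 and Galnt14. Galnt2, Galnt4 and Galnt12 had no window in that table, and Galnt1 is not reported here. The windows of Galnt10 and Galnt6, whose profiles were the closest pair, and of Galnt14, which went the other way in Treg, are shown. They are on the gene's strand, from 250 bases before to 50 after the annotated start. Capitals mark GC boxes (GGGCGG, or CCGCCC on the other strand). The windows are chr11:57645192-57645491 (plus strand) for Galnt10, chr15:100729327-100729626 (minus strand) for Galnt6, which has a further window, and chr17:73710402-73710701 (minus strand) for Galnt14.
Galnt10: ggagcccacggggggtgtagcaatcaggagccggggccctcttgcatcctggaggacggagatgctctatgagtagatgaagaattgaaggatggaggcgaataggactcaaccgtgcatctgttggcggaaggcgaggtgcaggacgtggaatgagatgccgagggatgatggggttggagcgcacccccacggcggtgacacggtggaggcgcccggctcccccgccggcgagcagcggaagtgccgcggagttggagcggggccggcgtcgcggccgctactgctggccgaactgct
Galnt6: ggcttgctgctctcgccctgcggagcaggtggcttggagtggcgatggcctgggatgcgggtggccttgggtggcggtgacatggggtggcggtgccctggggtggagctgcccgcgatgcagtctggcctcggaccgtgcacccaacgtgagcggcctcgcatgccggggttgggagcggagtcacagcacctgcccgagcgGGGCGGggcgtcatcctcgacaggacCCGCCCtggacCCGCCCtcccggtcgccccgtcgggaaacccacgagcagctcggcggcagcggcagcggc
Galnt14: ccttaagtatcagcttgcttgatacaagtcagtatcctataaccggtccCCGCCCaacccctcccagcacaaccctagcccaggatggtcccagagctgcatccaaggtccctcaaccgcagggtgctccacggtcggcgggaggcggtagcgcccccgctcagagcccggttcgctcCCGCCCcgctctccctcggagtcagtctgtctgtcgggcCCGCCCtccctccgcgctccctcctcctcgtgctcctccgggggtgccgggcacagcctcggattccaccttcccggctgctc

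Galnt10 and Galnt6 thus had 66% and 73.7% G and C, Galnt14 had 67.3%, and the median of all 32851 windows was 52.7%. The windows held 28, 31 and 23 CpG dinucleotides in the same order of genes. Of 6 motifs searched on both strands, the Galnt10 window held 0 matches. The Galnt6 window held 3 GC boxes, with first bases 47, 21 and 10 positions before the start, and the Galnt14 window held 3, at 201, 72 and 33 before it. At least 1 GC box stood in 35.66% of all windows. The other motifs were forkhead TGTTTAC, in 3.65% of all windows, RUNX TGTGGT in 16.76%, ETS CCGGAAG in 8.86%, TCF CTTTGAT in 3.73% and the palindromic CRE TGACGTCA in 1.79%. Of these, the only match in the 8 windows was a CRE in a Galnt11 window, beside 2 GC boxes. A Galnt9 window held 3 GC boxes. A match is a description of letters and not a binding site.

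Downstream of the starting step, 14 genes of core extension and sialylation were measured of 15 listed. Of these 2 were higher and 0 lower in Treg than in CD45RBhigh cells, or 2 and 2 with the replicate block. Against CD45RBlow cells 2 were higher and 2 lower in Treg, and 4 were higher and 0 lower in CD45RBlow than in CD45RBhigh cells. The medians of the list were 0.06, 0.04 and 0.01. Of all probe sets 10.3% were higher and 8.59% lower in the first comparison. In the second 6.74% were higher and 5.78% lower, and in the third 7.62% and 4.98%. These shares are from the fit without the block. They stand beside the counts without the block of this list and of the lists below, which were not tested against them. Counts with the block have no such share beside them and are a description only. C1galt1, which adds the galactose of core 1 to the GalNAc, had a Treg minus CD45RBhigh difference of -0.26 (SE 0.11, adjusted p = 0.149 with limma, 0.0316 with the block). The difference of its chaperone C1galt1c1 was -0.24 (adjusted p = 0.386).

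The core 1 galactose is sialylated by St3gal1 and St3gal2, which went opposite ways in Treg against CD45RBlow. St3gal1 read 9.22, 9.28 and 9.63 in Treg, 9.97, 9.92, 10.61 and 10.41 in CD45RBlow, and 9.54, 9.70, 9.86 and 10.32 in CD45RBhigh arrays. Treg lay under all CD45RBlow arrays and overlapped with CD45RBhigh. Treg was lower than CD45RBlow (-0.85, SE 0.21, adjusted p = 0.0200 with limma), a difference that no longer passed without Treg replicate 1 (adjusted p = 0.0890), Treg replicate 2 (0.0771) or CD45RBlow replicate 4 (0.0520). Treg minus CD45RBhigh was -0.48 (SE 0.21, adjusted p = 0.149, and 0.0167 with the block). St3gal2 read 7.82, 7.64 and 7.74 in Treg, 7.10, 7.31, 6.76 and 7.06 in CD45RBlow, and 6.51, 6.51, 6.40 and 6.92 in CD45RBhigh arrays. Treg lay above all other arrays, by 1.15 in the means against CD45RBhigh (SE 0.14, adjusted p = 0.000112 with limma) and by 0.68 against CD45RBlow cells (SE 0.14, adjusted p = 0.00778). Gcnt1, the core 2 branching enzyme, averaged 4.14 in Treg, 3.88 in CD45RBlow and 2.78 in CD45RBhigh cells, where it lay under the first quartile of all values, so no fold is given (adjusted p = 0.00137 for Treg and 0.00508 for CD45RBlow against CD45RBhigh). Its probe set may match several transcripts. St6galnac1, which sialylates the GalNAc itself, averaged 3.64 in Treg, 4.45 in CD45RBlow and 3.62 in CD45RBhigh cells. It was higher in CD45RBlow than in CD45RBhigh cells by 0.83 (SE 0.16, adjusted p = 0.00452), and Treg lay below CD45RBlow cells (-0.81, SE 0.17, adjusted p = 0.00845). The St6galnac1 mean lay under the first quartile of all values (3.640) in CD45RBhigh and near it in Treg (3.643). The size of these differences is thus hard to measure. St6galnac2 was higher in CD45RBlow than in CD45RBhigh cells by 0.44 (SE 0.09, adjusted p = 0.00726).

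Of enzymes that act early on other O-linked glycans, most of them starters, 8 were measured of 10 listed. In each comparison with Treg 1 was lower in Treg. Between the CD25- populations 1 was lower in CD45RBlow than in CD45RBhigh cells, while 0 were higher in any comparison. The block gave 2, 1 and 3 lower, with no share of all probe sets beside these counts. Xylt2 read 7.16, 7.23 and 7.51 in Treg, 8.06, 8.06, 8.33 and 8.41 in CD45RBlow, and 8.25, 8.28, 8.49 and 8.92 in CD45RBhigh arrays. All Treg arrays lay under all others, with differences of -1.19 from CD45RBhigh (SE 0.16, adjusted p = 0.000284 with limma) and -0.92 from CD45RBlow cells (SE 0.16, adjusted p = 0.00290). The gene lower in CD45RBlow cells was Pomt1, of O-mannosylation (-0.30, adjusted p = 0.0222). That call ended without any 1 of CD45RBlow replicates 1, 2 or 4 or CD45RBhigh replicate 3 or 4 (adjusted p between 0.0509 and 0.0726).

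Of genes in and around the supply of UDP-GalNAc, 8 were measured of 9 listed. Of these 1 was higher in Treg than in CD45RBhigh cells, Uap1l1, a relative of the pyrophosphorylase Uap1, by 0.34 (SE 0.08, adjusted p = 0.0120 with limma). The other comparisons gave 0 calls for this list. At an unadjusted p under 0.05 they gave 0 against CD45RBlow, and 1 higher and 2 lower in CD45RBlow than in CD45RBhigh cells, where the block called 1 lower. No share of all probe sets stands beside these unadjusted and block counts.

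Of 13 carrier proteins of such glycans measured, of 20 listed, 3 were higher and 0 lower in Treg than in CD45RBhigh cells, and 1 was higher and 0 lower than in CD45RBlow cells. Havcr2, which encodes TIM-3, averaged 4.34 in Treg, 3.51 in CD45RBlow and 3.46 in CD45RBhigh cells, the CD25- means lying under the first quartile (adjusted p = 7.72e-06 against CD45RBhigh and 2.77e-05 against CD45RBlow with limma). Cd44 exceeded its CD45RBhigh level by 1.44 in Treg (SE 0.34, adjusted p = 0.0120, and 0.0596 without Treg replicate 1) and by 1.50 in CD45RBlow cells (SE 0.31, adjusted p = 0.00830). Selplg, which encodes PSGL-1, differed by -0.11 between Treg and CD45RBhigh cells (adjusted p = 0.400).

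**Figure D4:**
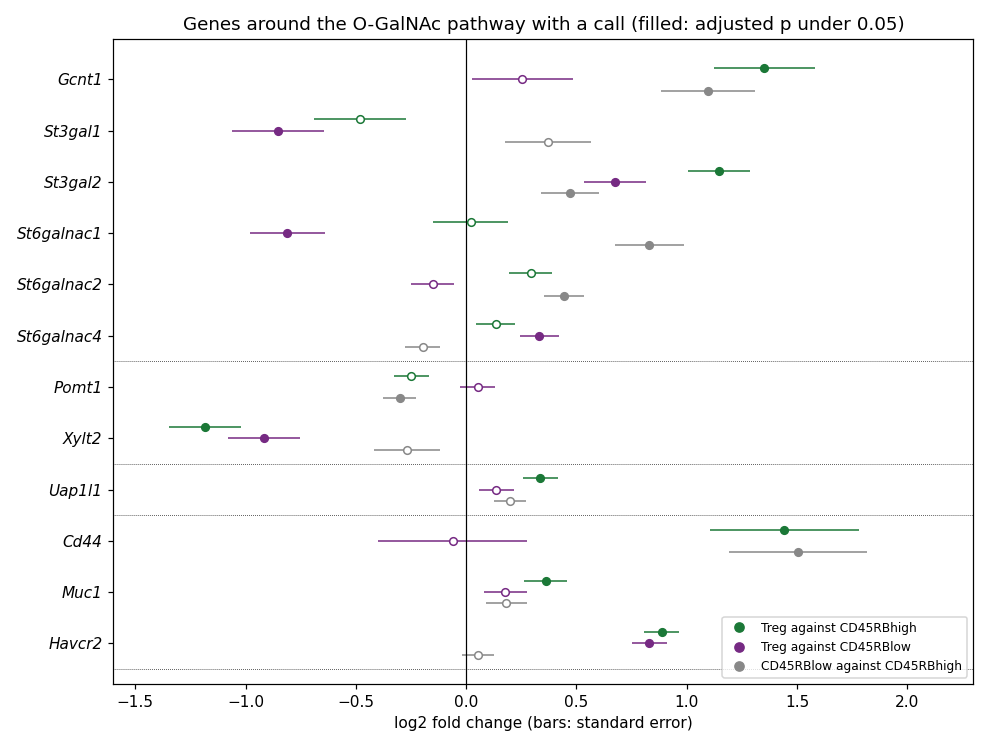
Log2 differences (± SE) of the genes around the O-GalNAc pathway named above, and others of their lists, with a call in at least 1 comparison. Dotted lines separate, from the top, core extension and sialylation, starters of other O-linked glycans, UDP-GalNAc supply and carrier proteins, and filled points have an adjusted p under 0.05. St3gal2 lies at 1.15 and Xylt2 at -1.19 in Treg against CD45RBhigh.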

How the data were processed

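RNA from sorted spleen cells (0.5 µg per sample) was amplified, biotin-labelled and hybridised to a custom Affymetrix chip. For extraction, Trizol stands in the labels and RNeasy in the series text. The deposited values are log2 levels, 1 per probe set and array, from RMA per the submitters' processing notes, with no version given. Values ran from 1.99 to 14.2. Precision is limited by how many arrays there are. The genome build is not given in the sources used here. RefSeq identifiers gave gene names to 963 of 1246 probe sets.

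With limma 3.58.1 (R 4.3.3), a mean per population was fitted over the 11 arrays (prior degrees of freedom 2.87, residual 8). Tests were two-sided, and p-values were adjusted by Benjamini-Hochberg over the 1246 probe sets, with a threshold of 0.05. The fit was tested on simulated data with noise independent between arrays, so without the correlation between arrays described below. The genes, lists, markers and motifs were chosen with earlier results of these data known. Genes named were the 9, the rest of the family, genes called in each list, the 3 nearest profiles of each called gene, and sort checks. Of each list up to 4 called genes were eligible for naming, and C1galt1, C1galt1c1, St3gal1 and Selplg were named beyond this rule, after their values were seen. Some genes of the lists are not reported here.

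No label says what a replicate number marks. Deviations from the population mean correlated above 0.1 in all 10 array pairs of the same number (0.31 to 0.56, median 0.46). So did those of all 10 pairs of other numbers within a replicate set (1 with 2, 3 with 4; 0.203 to 0.579, median 0.279) and 0 of 20 pairs across sets, so part of the correlation goes with the set. The numbers were taken to pair the arrays, and values with the number as a block are given where they change a call. Alternatives were the replicate number as a random effect, the replicate set as a covariate, arrays of replicates 1 and 2 only, only the arrays compared, 3 scalings, trend and robust moderation, a filter on dim probe sets, all probe sets of a gene averaged, and each array left out. A fit without probe sets that have equal values within a population was chosen after seeing the data. Python 3.11.15, pandas 2.3.3 and matplotlib 3.10.9 were used for the rest.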

Additional observations from a re-analysis of the deposited data

Results flagged for a closer look

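In the family's populations of 4 arrays, 1 of 38 had an array far from the others by Dixon's criterion, which chance passes in about 1 in 20. It was Galnt3 in CD45RBhigh cells, with a log2 level of 2.52 against 2.47 on each of the other 3 arrays, all under the first quartile of all values.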

How the results depend on the processing

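Of 618 results for the 9 genes under alternatives, 555 kept their direction and side of the threshold, 34 lost a call and 11 gained a call. The other 18 changed sign, 0 of them called in either fit. Part of the 618 had little room to move. Leaving out an array of a population outside the comparison left the difference itself unchanged, and results without a call are also among the 555. Of the 18 sign changes 15 came from leaving out an array. There Galnt1 ran from -0.27 to 0.091 in Treg against CD45RBhigh, from -0.31 to 0.056 in Treg against CD45RBlow and from -0.10 to 0.17 in CD45RBlow against CD45RBhigh, and Galnt4 from -0.24 to 0.028 in Treg against CD45RBlow. In CD45RBlow against CD45RBhigh Galnt2 ran from -0.047 to 0.16 and Galnt12 from -0.073 to 0.033. In that comparison Galnt9 and Galnt12 came to 0.067 and 0.059 with only replicates 1 and 2, and Galnt12 to 0.017 with quantile normalization. The count of the 9 called in Treg against CD45RBhigh was 7, and 3 to 7 when leaving out an array (3 without Treg replicate 2, namely Galnt6, Galnt9 and Galnt10). In Treg against CD45RBlow it was 6, and 2 to 6 when leaving out an array (2 without Treg replicate 1 or 2, namely Galnt10 and Galnt14). With the replicate block these counts were 8 and 8, and it changed no call of the 9 beyond those given above for Galnt1, Galnt6 and Galnt11. In CD45RBlow against CD45RBhigh it was 2, and 4 with the replicate block, 1 with only the arrays of replicates 1 and 2 (Galnt6, adjusted p = 0.0399, in place of Galnt4 and Galnt10), 1 with only the arrays compared (Galnt4), and 0 to 2 when leaving out an array (0 without CD45RBhigh replicate 2, and 1 without CD45RBhigh replicate 1 or CD45RBlow replicate 1, 2 or 3). Such fits use fewer arrays, and beyond that the cause was not tested. The share of all probe sets called with the replicate block is not given here. Counts with the block thus have no background beside them and are a description only. The calls of the 9 that ended without an array passed with the block (limma, all 11 arrays). Adjusted p was 0.00117 and 0.00115 for Galnt2, and 0.00635 and 0.0127 for Galnt12, in Treg against CD45RBhigh and CD45RBlow. For Treg against CD45RBhigh it was 8.35e-05 for Galnt4 and 0.000218 for Galnt11. For Treg against CD45RBlow it was 0.000404 for Galnt6 and 0.0189 for Galnt9. Between the CD25- populations it was 0.000382 for Galnt4 and 0.0126 for Galnt10. The 3 scalings moved the median of all probe sets by at most 0.0211. Quantile normalization added Galnt14 in Treg against CD45RBhigh (adjusted p = 0.0496). With only replicates 1 and 2 the calls of Galnt12 against CD45RBhigh and of Galnt14 against CD45RBlow ended (adjusted p = 0.0569 in both), and those of Galnt4 and Galnt10 between CD45RBlow and CD45RBhigh (0.0568 and 0.0781), as did that of Galnt12 against CD45RBlow with trend and robust moderation (0.0578). Averaging probe sets changed no value, each of the 9 having 1. Small differences of dim probe sets such as Galnt14 are limited by signal over background, for which no measure was used here.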
